A study of Rattus norvegicus with 8 samples.

Results

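A set of 10 genes of the blood vessel lining was followed in the livers of adult male Sprague-Dawley rats. Esm1, Apln and Nrarp are genes of sprouting or Notch-responsive endothelium. They were chosen by their low p-values in the comparison of AhR with Control livers, so their values in that comparison are given as a description with no test. The SEs given for them there take no account of that choice. Tie1, Tek, Kdr, Oit3, Lyve1, Stab2 and Pecam1 are markers of endothelium or of the liver sinusoid and were added to be set beside them. Of the 10 genes, 9 had a probe on the array, each a single probe, and 8 of these passed the filter on dim probes (a Cy5 signal flagged as well above background on 4 or more arrays). These 8 stand among 10004 named genes that passed. Stab2 had no matched probe, and Tek was dim.

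The AhR group were offspring of dams given a mixture of agonists of the aryl hydrocarbon receptor (AhR), namely non-ortho-PCBs, dioxins and furans in corn oil, at 1.8 ng/kg/day of dioxin toxic equivalents. The Control group were offspring of dams given corn oil alone. Dosing ran from gestation day 0 to postnatal day 20, neither group was cross-fostered, and livers were taken at postnatal days 78 to 86. Each group had 4 arrays, each with Cy5-labelled RNA pooled from 2 rats, so 8 male pups stood behind a group. Every array also carried Cy3-labelled universal rat reference RNA from 14 cell lines, and dyes were not swapped. Values below are log2 Cy5/Cy3, liver over reference, unless another scale is named. The labels do not say whether pools shared litters, and p-values measure the spread between these pools. In whole liver, fewer cells of a type and less RNA per cell cannot be told apart.

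Liver sinusoids are lined by a specialised, fenestrated endothelium that clears material from the blood through scavenger receptors such as the stabilins, while larger vessels carry a continuous lining. Vascular endothelial growth factor acts through the receptor encoded by Kdr, and it leads selected endothelial cells to become tip cells, which head a new sprout and express Esm1 and Apln. Delta-Notch signalling holds neighbouring cells back from that state, and Nrarp is a Notch target that feeds back on the Notch complex. Bound by a ligand, the AhR enters the nucleus and binds DNA together with ARNT, which also pairs with the hypoxia-inducible factors.

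The promoters of Esm1, Nrarp, Apln and Kdr are shown because the first 3 genes had higher ratios on all 4 AhR arrays than on any Control array, and because Kdr, whose groups overlapped, holds the same short AhR motif as Esm1. Each is 300 bases of RefSeq sequence in assembly GRCr8, from 250 bases before to 50 after the start used in the RefSeq promoter table, written 5′ to 3′ on the gene's strand. Capitals mark matches to the cores GCGTG (AhR-ARNT), ACGTG (HIF), TGGGAA (RBPJ, the DNA-binding partner of Notch) and CGGAAG (ETS), each searched on both strands.
Esm1, chr2:46609003-46609302, plus strand: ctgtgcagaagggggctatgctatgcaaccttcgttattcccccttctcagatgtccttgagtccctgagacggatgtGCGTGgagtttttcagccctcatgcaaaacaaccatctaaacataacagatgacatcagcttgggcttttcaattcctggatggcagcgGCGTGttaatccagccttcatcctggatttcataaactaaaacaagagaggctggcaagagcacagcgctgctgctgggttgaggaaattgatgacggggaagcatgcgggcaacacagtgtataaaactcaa
Nrarp, chr3:28390495-28390794, plus strand: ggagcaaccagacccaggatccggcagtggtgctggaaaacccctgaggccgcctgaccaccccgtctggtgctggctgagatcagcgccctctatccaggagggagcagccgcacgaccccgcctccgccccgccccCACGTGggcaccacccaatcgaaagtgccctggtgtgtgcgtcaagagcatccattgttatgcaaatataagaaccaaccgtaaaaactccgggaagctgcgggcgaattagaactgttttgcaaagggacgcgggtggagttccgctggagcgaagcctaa
Apln, chrX:132091197-132091496, minus strand: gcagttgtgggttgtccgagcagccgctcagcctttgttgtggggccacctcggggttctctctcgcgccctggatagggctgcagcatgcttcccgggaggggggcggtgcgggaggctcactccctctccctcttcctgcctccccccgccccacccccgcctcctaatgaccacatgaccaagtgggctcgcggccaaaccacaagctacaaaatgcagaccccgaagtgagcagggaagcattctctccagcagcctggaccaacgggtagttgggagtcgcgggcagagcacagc
Kdr, chr14:32571813-32572112, plus strand: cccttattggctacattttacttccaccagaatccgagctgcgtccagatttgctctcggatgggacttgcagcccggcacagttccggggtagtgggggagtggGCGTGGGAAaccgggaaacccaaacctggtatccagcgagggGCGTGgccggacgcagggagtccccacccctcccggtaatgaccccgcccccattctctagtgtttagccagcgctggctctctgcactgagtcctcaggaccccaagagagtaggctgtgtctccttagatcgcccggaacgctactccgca

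The Esm1 window held 2 copies of GCGTG, whose first bases lie at -172 and -83 from the start. The Kdr window also held 2 copies of GCGTG, at -145 and -103, and the copy at -145 overlaps a TGGGAA at -142. The Nrarp window held ACGTG on both strands of a single CACGTG at -112, and the Apln window held none of the 4 motifs. Of the 10 genes, 8 had an entry in the table, and Tek and Pecam1 had none. GCGTG stood in 2 of the 8 windows (25%), against 29.7% of all 33469 promoters of the same length. ACGTG stood in 1 of 8 (12.5%), against 19.3% of all. TGGGAA stood in 2 of 8 (25%), in Kdr and Tie1, against 25.7% of all, and CGGAAG in 1 of 8 (12.5%), in Oit3, against 16.6%. A match describes the letters of the window, and its absence says nothing of the factor.

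The arrays lay on 1 slide. Their median Cy5 signal was 159 to 232 over a median local background of 71 to 76, and 56.2% to 62.0% of probes were well above background in Cy5. The hepatocyte list, 20 plasma protein and metabolic genes, had 20 members that passed the filter, with a mean ratio of 0.12 to 0.31 on AhR arrays and 0.07 to 0.30 on Control arrays. Correlations between log ratios of 2 arrays ran from 0.396 to 0.728. Dbp, a clock output gene, ranged from -2.21 to 1.41 on AhR arrays and from -1.52 to 0.32 on Control arrays, so arrays of 1 group differed strongly in a gene of daily rhythm. The limma fit over 17859 probes called 0 of them between AhR and Control at an adjusted p under 0.05 (0.0%), the lowest adjusted p was 1.00, and 288 probes had an unadjusted p under 0.05. Those 288 are a smaller share of the 17859 probes than the 0.05 expected where no probe differs, and why was not tested. The number of arrays limits the precision.

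Esm1 encodes endocan, a proteoglycan secreted by endothelial cells and a tip cell gene. Its probe, A_43_P12257, gave 0.26, 0.05, 0.41 and 0.13 on AhR arrays 1 to 4, against -0.24, -0.40, -0.83 and -0.14 on Control arrays 1 to 4. Each AhR array lay above each Control array, the highest being AhR 3 and the lowest Control 3. Means were 0.21 ± 0.16 in AhR and -0.40 ± 0.30 in Control (SD, n = 4 each), a difference of 0.61 (SE 0.15), or 1.53-fold. The raw median Cy5 signal was 270, 313, 299 and 213 on AhR arrays and 146, 158.8, 121 and 213 on Control arrays, over local backgrounds of 72.5 to 79. AhR 4 and Control 4 had the same raw signal and differed once arrays were normalized. On the scanner software's processed signals the difference was 1.04. Without Control 3 it was 0.47, the lowest value with any 1 array left out.

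Nrarp encodes an ankyrin-repeat protein that is induced by Notch and limits it. Its single spot per array, probe A_64_P108009, gave 0.16, 0.34, 0.32 and 0.34 on AhR arrays 1 to 4, against 0.00, -0.48, -0.04 and -0.16 on Control arrays. The groups did not overlap, 3 AhR arrays lay within 0.02 of each other, and Control 2 was the lowest. Means were 0.29 ± 0.09 in AhR and -0.17 ± 0.21 in Control (SD, n = 4 each), a difference of 0.46 (SE 0.12), or 1.38-fold. The raw Cy5 signal was 244 to 397.5 on AhR arrays and 152.5 to 216 on Control arrays, over local backgrounds of 71 to 76.5. On the processed signals the difference was 0.60, and with a normexp offset of 10 it was 0.58. With 1 spot there is no within-array check of this probe.

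Apln encodes apelin, the peptide ligand of the receptor Aplnr. Its probe, A_42_P637189, stood in 10 spots per array, and their mean was 0.06, 0.09, 0.39 and -0.12 on AhR arrays 1 to 4, against -0.20, -0.29, -0.35 and -0.26 on Control arrays. The groups did not overlap, with AhR 3 well above the others and AhR 4 just above Control 1. Means were 0.11 ± 0.21 in AhR and -0.27 ± 0.06 in Control (SD, n = 4 each), a difference of 0.38 (SE 0.11), or 1.30-fold. On the processed signals it was 0.81, and with a normexp offset of 10 it was 0.56. The spots show how wide the error within an array is. On AhR 3 they ran from 0.21 to 0.54 and lay above every Control spot, whereas on AhR 4 they ran from -0.29 to 0.09 and overlapped those of Control 1, which ran from -0.36 to -0.10 over 9 used spots. The lowest spots of AhR 1 (-0.13) and AhR 2 (-0.19) also lay below the highest spot of Control 2 (-0.05). The SD between spots was 0.11 to 0.14 on AhR arrays and 0.08 to 0.13 on Control arrays. Apln was dim, with raw Cy5 of 142.3 to 221.4 on AhR arrays and 111.7 to 150 on Control arrays over backgrounds of 72.11 to 77.2. Its receptor gene Aplnr had a probe that did not pass the filter.

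**Figure D1:**
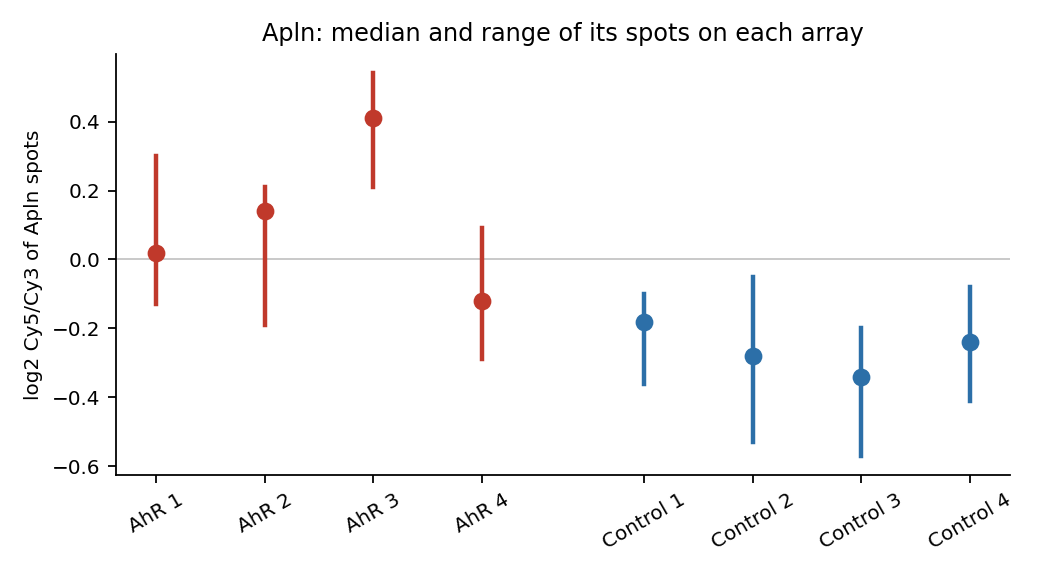
Apln spots on each array: the vertical axis is log2 Cy5/Cy3, the point is the median spot and the line runs from the lowest to the highest spot (10 spots per array, 9 on Control 1). AhR 3 (0.21 to 0.54) lies above all Control spots, while AhR 1 (-0.13 to 0.30), AhR 2 (-0.19 to 0.21) and AhR 4 (-0.29 to 0.09) overlap them.

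Over all 17857 probes with a value on every array, 112 (0.627%) had all 4 AhR arrays above all 4 Control arrays, and 100 (0.56%) had them all below. Esm1, Nrarp and Apln are among the 112 through their choice, and nothing is read from that. Of the 5 markers that passed the filter, Tie1 was among the 112 and the other 4 were not.

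Tie1 encodes a receptor-like tyrosine kinase of endothelium that works with the angiopoietin receptor Tek. It gave 0.06, -0.09, 0.02 and -0.14 on AhR arrays 1 to 4, against -0.39, -0.30, -0.15 and -0.17 on Control arrays. The groups touched without overlapping, at -0.14 on AhR 4 and -0.15 on Control 3. The difference was 0.21 (SE 0.10, 95% interval 0.00 to 0.42, n = 4 each), and limma's adjusted p over all probes was 1.00. The probe was dim, with raw Cy5 of 127.8 to 158.8 on AhR arrays and 103.5 to 136.2 on Control arrays. Its 2 spots on AhR 1 lay at -0.15 and 0.27, further apart than the group means. On the scanner software's processed signals the difference was 0.44, and with a normexp offset of 10 it was 0.33.

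Tek was well above background in Cy5 on 0 AhR and 2 Control arrays. Its ratios, which rest on signals of 79.75 to 98.75 in AhR and 83 to 98.75 in Control over backgrounds of 68.25 to 75.25, were -0.11, 0.13, 0.15 and -0.08 on AhR arrays, against 0.07, 0.23, 0.03 and 0.08 on Control arrays. No direction can be read at that brightness.

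Oit3, a gene of liver that marks sinusoidal endothelium, gave 0.16, -0.09, 0.58 and 0.06 on AhR arrays 1 to 4, against -0.31, -0.25, -0.42 and 0.24 on Control arrays. AhR 3 was highest, and Control 4 lay above 3 of the 4 AhR arrays. The difference was 0.36 (SE 0.17, 95% interval -0.02 to 0.74, n = 4 each, limma adjusted p = 1.00), and 0.23 without AhR 3.

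Lyve1 encodes a hyaluronan receptor of sinusoidal and lymphatic endothelium. It gave -0.01, -0.27, 0.07 and -0.23 on AhR arrays 1 to 4, against -0.29, -0.15, -0.88 and -0.36 on Control arrays. Control 3 stood far below the other 7 arrays, and the groups overlapped. The difference was 0.31 (SE 0.16, 95% interval -0.03 to 0.66, n = 4 each, limma adjusted p = 1.00), and 0.16 without Control 3.

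Kdr, the main receptor for vascular endothelial growth factor on endothelium, was bright, with raw Cy5 of 6905 to 11090 on AhR arrays and 5310 to 8934 on Control arrays. It gave 0.05, -0.31, -0.01 and -0.12 on AhR arrays 1 to 4, against 0.17, 0.40, -0.69 and -0.46 on Control arrays. The Control arrays spanned both sides of the AhR arrays. The difference was 0.05 (SE 0.22, 95% interval -0.43 to 0.52, n = 4 each, limma adjusted p = 1.00). It was -0.13 without Control 3, -0.06 without Control 4 and 0.00 without AhR 1. The within-group SD of Kdr, 0.38, was larger than that of 95.2% of genes that passed the filter.

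Pecam1 encodes the junctional adhesion protein CD31 of endothelium and platelets. It gave -0.29, -0.42, 0.05 and -0.10 on AhR arrays 1 to 4, against -0.21, 0.14, -0.46 and -0.47 on Control arrays. The ranges overlapped over most of their length. The difference was 0.06 (SE 0.15, 95% interval -0.28 to 0.40, n = 4 each, limma adjusted p = 1.00), and it was -0.02 without AhR 3 and -0.01 without Control 3 or Control 4.

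**Figure D2:**
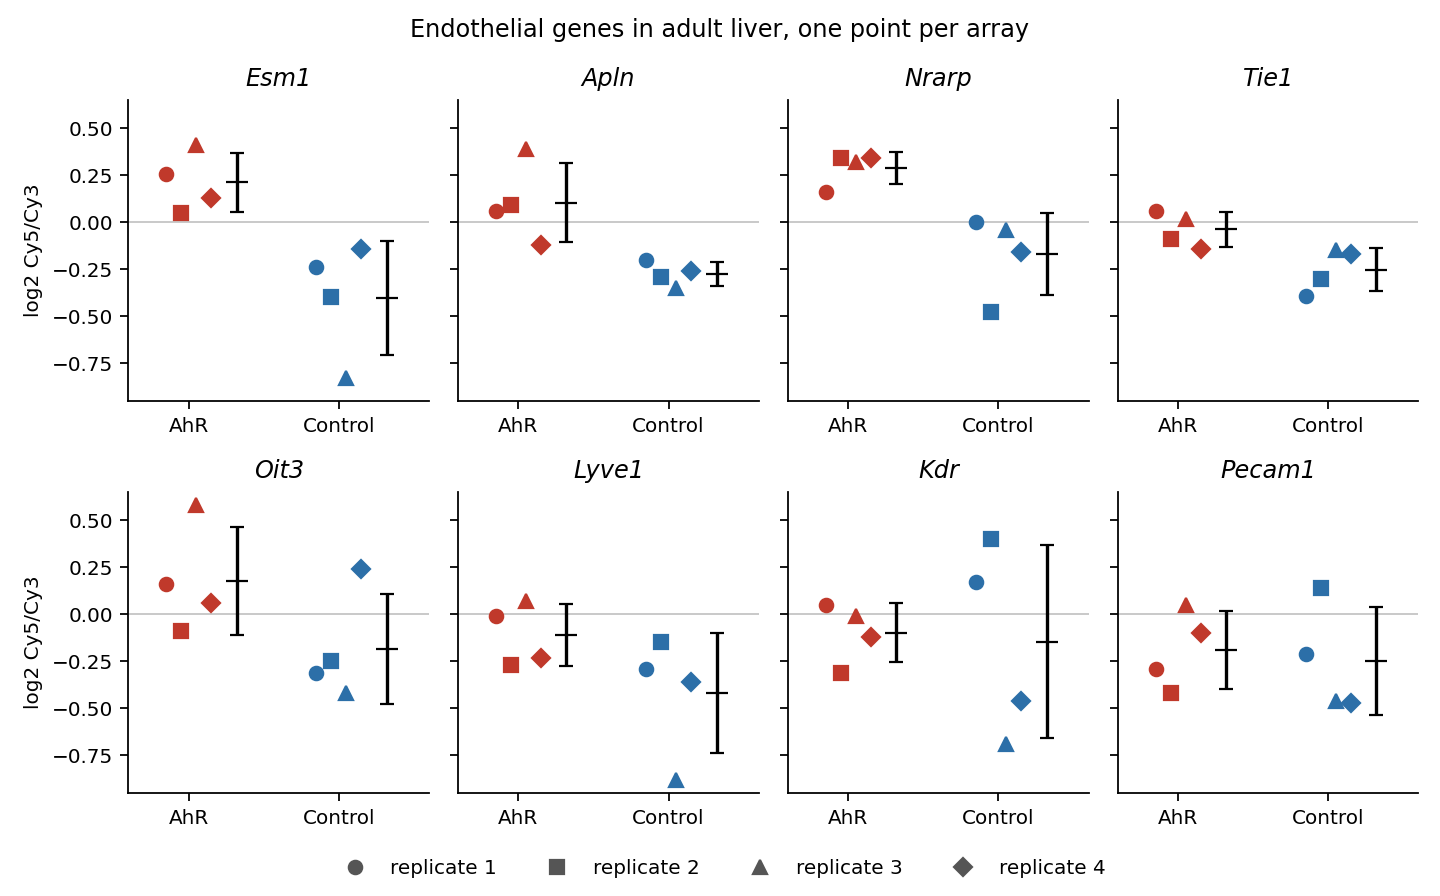
The 8 genes that passed the filter, one panel each: the vertical axis is log2 Cy5/Cy3, each point is 1 array with its shape giving the replicate number, and the bar is the mean ± SD of 4 arrays (AhR left, red; Control right, blue). Esm1, Apln, Nrarp and narrowly Tie1 show no overlap, while the Control arrays of Kdr range from -0.69 to 0.40.

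In these values Esm1, Nrarp and Apln differed between the groups by 0.38 to 0.61, and the 5 markers by 0.05 to 0.36. None of the markers passed the adjusted test. All 5 markers had a mean above that of Control, with a median difference of 0.21, against 8513 of 17859 probes (47.7%) and a median of -0.01 over all probes. The mean of the 5 markers was 0.00, -0.24, 0.14 and -0.11 on AhR arrays 1 to 4, against -0.21, -0.03, -0.52 and -0.24 on Control arrays, so AhR 2 and Control 2 stood the other way round. The mean of Esm1, Apln and Nrarp was 0.16, 0.16, 0.37 and 0.12 on AhR arrays, against -0.15, -0.39, -0.41 and -0.19 on Control arrays. On AhR 2 the 3 genes averaged 0.16 while the markers averaged -0.24, and on Control 2 they averaged -0.39 while the markers averaged -0.03. The 3 genes were chosen on this comparison, so nothing is read from their gap to the markers.

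The slide held 2 rows of 4 arrays, and each row had 2 arrays of each group. Within row 1, the difference was 0.62 for Esm1, 0.36 for Nrarp, 0.26 for Apln and 0.15 for Tie1. Within row 2, it was 0.60 for Esm1, 0.56 for Nrarp, 0.50 for Apln and 0.27 for Tie1. Oit3 differed by 0.35 in row 1 and 0.37 in row 2, Lyve1 by 0.34 in row 1 and 0.29 in row 2, and Kdr by 0.05 in both. Both rows belong to the arrays on which Esm1, Nrarp and Apln were chosen, so nothing is read from their values by row.

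The Cy3 channel holds the same reference RNA on every array. In Cy3 alone the AhR minus Control difference was 0.04 for Esm1, 0.05 for Nrarp, 0.02 for Apln and between -0.02 and 0.04 for the 5 markers. In Cy5 alone, on the log2 signal after normalization between arrays, it was 0.70 (SE 0.17) for Esm1, 0.54 (SE 0.10) for Nrarp, 0.42 (SE 0.13) for Apln and 0.40 (SE 0.17) for Oit3. Lyve1 differed by 0.31, Tie1 by 0.21, Kdr by 0.10 and Pecam1 by 0.08 in Cy5 alone. Esm1, Nrarp and Apln were chosen on this comparison, so nothing is read from the gap between their channels.

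**Figure D3:**
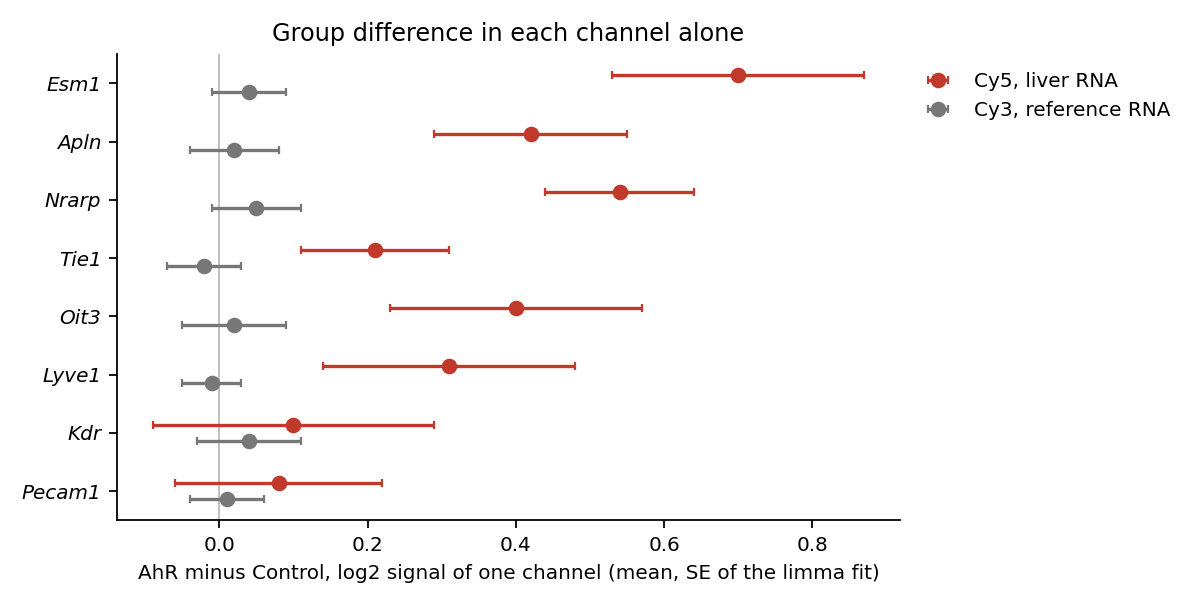
AhR minus Control difference in the log2 signal of each channel alone for the 8 genes (point, mean difference over 4 arrays per group; bar, SE of the limma fit; red, Cy5 with liver RNA; grey, Cy3 with the common reference RNA). The Cy3 differences lie between -0.02 and 0.05, and the Cy5 differences between 0.08 and 0.70.

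The second comparison sets liver against the reference RNA, averaged over both groups, which the choice of genes did not use. Esm1 stood at -0.10, Apln at -0.08, Nrarp at 0.06, Tie1 at -0.14, Kdr at -0.12, Oit3 at 0.00, Lyve1 at -0.26 and Pecam1 at -0.22. Lyve1 passed the threshold (limma adjusted p = 0.0337, 8 arrays), and Tie1 (limma adjusted p = 0.0533) and Pecam1 (limma adjusted p = 0.0659) were just short of it. Over all probes, 1656 of 17859 were higher in liver (9.27%) and 2238 were lower (12.5%). The Lyve1 call was lost in 8 of 16 alternative settings, with adjusted p of 0.0566 to 0.781. These were median centring, where its value was -0.03, the processed signals, the value table, and the fits without AhR 1, AhR 2, AhR 4, Control 3 or Control 4. Tie1 passed in 3 of 16 settings (limma adjusted p of 0.0276 to 0.0358), and Pecam1 in 1, without Control 2 (limma adjusted p = 0.0188). All 8 genes were well above background in Cy3 on all 8 arrays, in a reference that the labels describe as cell lines. Their ratios lay within 0.26 of 0.00. Genes of the hepatocyte list also stood on both sides of 0.00, from -0.49 to 0.81. Such ratios are therefore not particular to the endothelial genes. Without a dye swap, a ratio to the reference holds any dye bias of its probe. Normalization within each array also centres its typical ratio near 0.00. A ratio near 0.00 is thus near that of a typical probe, and not a measure of equal RNA in liver and reference.

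Genes of the list varied together within groups in part. Pearson r was taken over 8 arrays with the group means removed, as a description, and the points share the slide and the reference RNA. Kdr and Lyve1 correlated at 0.842 (rho 0.857), Kdr and Pecam1 at 0.811 (rho 0.714), and Lyve1 and Pecam1 at 0.666 (rho 0.762). Without the 2 arrays farthest from the median of the first gene of each pair, these were 0.551, 0.630 and 0.520. Tie1 ran apart from them, at -0.493 with Kdr, -0.198 with Lyve1 and -0.361 with Pecam1, but stood at 0.434 with Oit3. The Tie1 probe was dim, and its within-group SD was 0.11. The SD between its 2 spots ran from 0.01 (AhR 4) to 0.29 (AhR 1), so spot error can weigh on these values. Oit3 stood at 0.0164 with Kdr. The 10 marker pairs had a median r of 0.299 and ranged from -0.493 to 0.842, so the 5 markers did not move as 1 block from array to array.

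Esm1 had an r of 0.834 to Lyve1 (rho 0.619) and of 0.765 to Oit3 (rho 0.833) within groups. Without Control 3 and Control 4, the arrays farthest from the median of Esm1, these were 0.726 and 0.732. Its r with the mean of the 5 markers was 0.747 (rho 0.595), and 0.125 without AhR 2 and Control 3, the arrays farthest from the median of the marker mean, so that relation rests on those arrays. Apln stood at 0.514 (rho 0.429), and at 0.661 without the same arrays. Nrarp ran the other way, at -0.595 (rho -0.643), and at -0.555 without them. AhR 1 and Control 2, the arrays farthest from the median of Nrarp itself, were kept in both values. Nrarp and Esm1 correlated at -0.159, and Nrarp and Apln at 0.0481, both weak. The r of Nrarp was -0.573 with Kdr (rho -0.333), -0.569 with Lyve1 (rho -0.5) and -0.518 with Pecam1 (rho -0.238). Without AhR 1 and Control 2 these were 0.224, -0.258 and -0.000406, so the values rest largely on those arrays. No p is attached to any of these values.

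**Figure D4:**
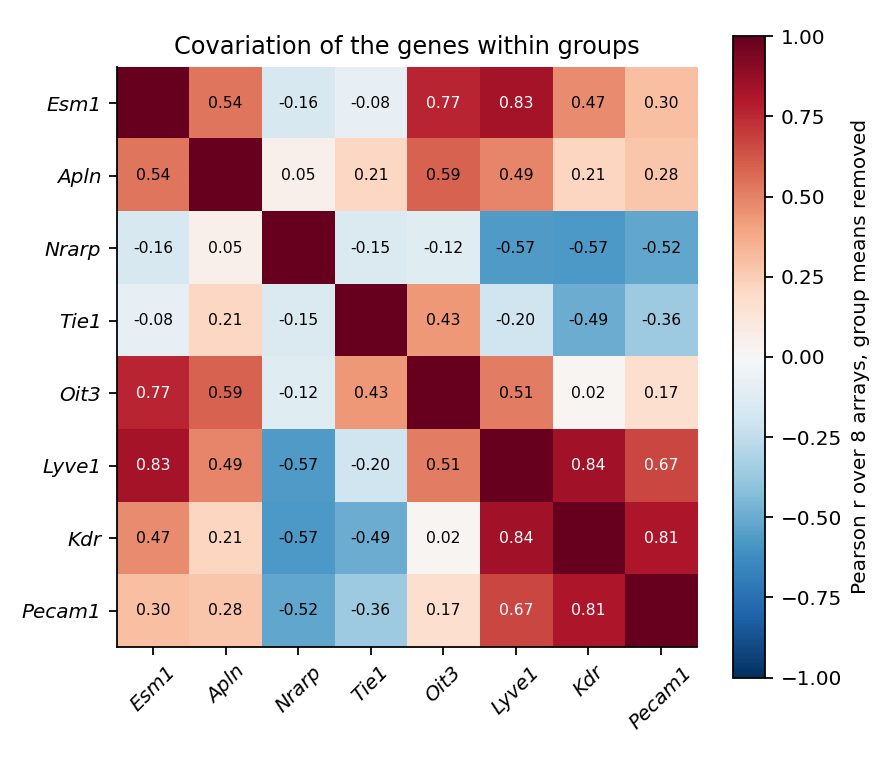
Pearson r between the 8 genes over 8 arrays after the group means were removed (both axes, genes; colour and number, r). Kdr, Lyve1 and Pecam1 lie between 0.67 and 0.84 with each other, and Nrarp is at -0.52 to -0.57 with these 3. Without AhR 1 and Control 2, Nrarp was at 0.224 with Kdr, -0.258 with Lyve1 and -0.000406 with Pecam1.

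The genes most like the marker mean on the same measure were Dipk1b (r = 0.969), Slc24a2 (0.948), Il1a (0.937), Cdkl2 (0.929) and Plpp1 (0.929). Those most like Esm1 were Wdr70 (0.970), Tmem184c (0.959) and Bpifb5 (0.951). Fabp4, a fatty acid binding protein of fat cells and capillary endothelium, was closest to Apln (0.964), with Krtap16-5 (0.962) and Dis3 (0.908) after it. Abcb11, the bile salt export pump of hepatocytes, was closest to Nrarp (0.964), followed by Slc44a2 (0.957) and Ccdc163 (0.949). These are the highest values among 10004 genes over 8 arrays, and r is given as a description.

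Wider endothelial lists were set beside these genes. Of 29 other pan-endothelial genes, 23 had a probe and 19 passed the filter, 15 with a higher and 4 with a lower mean in AhR, a median difference of 0.12 and 0 past the adjusted test. Rasip1, which acts in vessel lumen formation, stood at -0.11 ± 0.09 in AhR and -0.32 ± 0.08 in Control (SD, n = 4 each). It was the only gene of the list whose groups did not overlap, against 0.627% of all probes with AhR above Control. Ramp2, the adrenomedullin receptor partner, differed by 0.32 (SE 0.16). S1pr1, a sphingosine-1-phosphate receptor of endothelium and lymphocytes, differed by -0.38 (SE 0.16), with -0.23 to 0.36 on AhR arrays and -0.04 to 0.58 on Control arrays. The list mean ran from -0.15 to 0.09 on AhR arrays and from -0.16 to -0.02 on Control arrays. It was -0.08 on Control 3, the array where the 5 markers averaged -0.52.

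Of 16 other sinusoidal genes, 12 had a probe and 11 passed the filter, 7 higher and 4 lower in AhR, with a median of 0.09 and 0 past the adjusted test. Dnase1l3, a secreted nuclease, differed by 0.15, F8, the coagulation factor VIII gene, by 0.14, and Bmp2, a ligand that signals to hepatocytes, by 0.13. The list mean lay between -0.22 and 0.10 on AhR arrays and between -0.21 and -0.01 on Control arrays, which overlap. Over the 22 alternatives the median stayed between 0.06 and 0.16 for the pan-endothelial list and between 0.04 and 0.14 for the sinusoidal list.

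The pathways in which Esm1, Apln and Nrarp act were described by their other genes. Of 18 tip cell genes, 10 passed the filter, 7 higher and 3 lower in AhR, with a median of 0.05. Mcam, an adhesion molecule of vessel walls, differed by 0.30, the vasodilator peptide gene Adm by 0.21 and the chemokine receptor gene Cxcr4 by 0.18. Of 13 genes of the VEGF and angiopoietin pathways, 7 passed, 4 higher and 3 lower, with a median of 0.03. The receptor gene Flt4 differed by 0.10, the ligand gene Pgf by 0.07 and the co-receptor gene Nrp1 by 0.05. Angpt2 did not pass the filter.

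Of 19 Notch genes, 13 passed, 8 higher and 5 lower in AhR, with a median of 0.02. The endothelial receptor gene Notch4 differed by 0.22 (SE 0.10), with -0.15 to 0.23 on AhR arrays and -0.29 to -0.08 on Control arrays. The DNA-binding partner gene Rbpj differed by 0.18, and the target gene Hes1 by -0.32 (SE 0.30), opposite in sign to Nrarp. Of 19 hypoxia-inducible genes, 16 passed, 7 higher and 9 lower, with a median of -0.01. Ldha, a glycolytic enzyme gene, had groups that did not overlap, 0.76 to 0.98 on AhR arrays against 0.10 to 0.74 on Control arrays. Over all probes, 0.627% lay apart in that direction. Ndrg1 differed by 0.14. The medians of the VEGF, Notch and hypoxia lists were below 0 in some settings and above 0 in others, with ranges of -0.05 to 0.12, -0.04 to 0.08 and -0.08 to 0.09. None of the genes on these 4 lists passed the adjusted test.

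Markers of other liver cells also differed in their means. Stellate cell genes were higher in AhR for 12 of 15 (median 0.10), with the smallest p for the matrix proteoglycan gene Dcn (0.33), and their mean ran from -0.43 to -0.24 on AhR arrays and from -0.62 to -0.35 on Control arrays. Kupffer cell genes were higher for 12 of 15 (median 0.14), with the smallest p for the scavenger receptor gene Cd163 (0.25), and means of -0.20 to 0.34 on AhR arrays and -0.69 to 0.12 on Control arrays. The Kupffer median was -0.05 without Control 1 and 0.00 without AhR 3. Smooth muscle genes were higher for 4 of 5 (median 0.12), with the smallest p for the myosin gene Myh11 (0.45), and means of -0.67 to -0.56 on AhR arrays and -0.98 to -0.53 on Control arrays. Cholangiocyte genes were higher for 5 of 6 (median 0.11), with means of -0.06 to 0.06 on AhR arrays and -0.24 to 0.12 on Control arrays. Within slide row 1 the smooth muscle and cholangiocyte medians were 0.00. The stellate, smooth muscle and cholangiocyte lists each had 1 gene whose groups did not overlap, higher in AhR, against 0.627% of all probes. Dcn lay at -0.85 to -0.40 on AhR arrays and -1.09 to -0.91 on Control arrays. Myh11 lay at -1.51 to -1.19 on AhR arrays and -2.18 to -1.56 on Control arrays. The Kupffer and hepatocyte lists had 0 such genes. Hepatocyte genes were split, 10 higher and 10 lower (median 0.01), and Hnf4a, their regulator, differed by 0.17.

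Red cell genes were lower for 5 of 5 (median -0.35), with the smallest p for the haemoglobin chaperone gene Ahsp (-0.70). Their mean was -0.87, -0.37, -1.5 and -1.02 on AhR arrays 1 to 4, against -0.87, 0.44, -0.75 and -0.76 on Control arrays, where Control 2 stood apart. The red cell median was 0.11 within slide row 1, -0.85 within row 2 and -0.13 without Control 2. AhR 3, with the lowest red cell mean, also had the highest mean of the stellate list (-0.24), of the Kupffer list (0.34) and of the 5 endothelial markers (0.14).

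The lymphatic list had 3 measured genes, 1 higher and 2 lower (median -0.02). Prox1, which lymphatic endothelium and hepatocytes express, was among the 100 probes with all AhR arrays below all Control arrays, at -0.07 to -0.03 on AhR arrays and 0.09 to 0.11 on Control arrays. Platelet genes were 1 higher and 2 lower (median -0.03), with Gp1bb at -0.15, and lymphocyte genes 2 higher and 5 lower (median -0.02), with Cd8a at -0.09. None of the genes on these lists of other cells passed the adjusted test. The part of these other cells in the endothelial values was not tested.

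**Figure D5:**
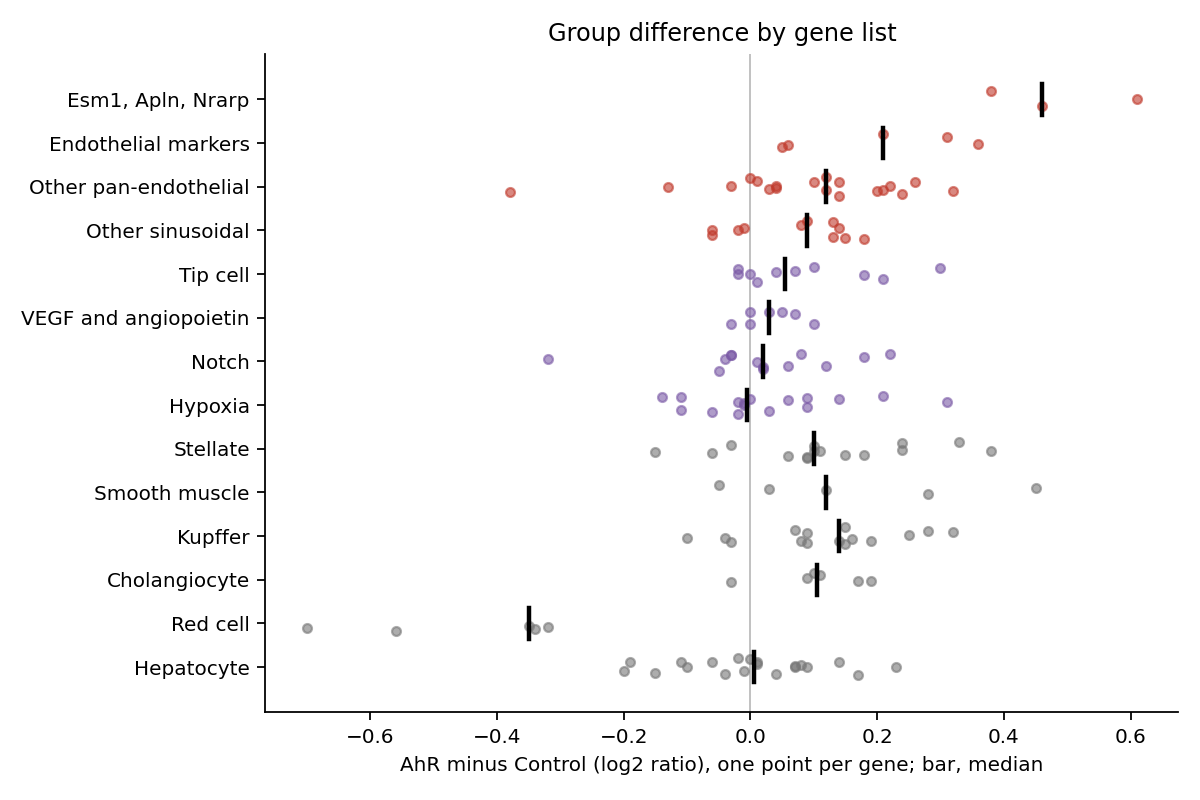
AhR minus Control difference by gene list: the horizontal axis is the difference in log2 Cy5/Cy3, each point is a gene that passed the filter and the black bar is the list median (red, endothelial; violet, pathways; grey, other cells). Medians are 0.46 for Esm1, Apln and Nrarp, which were chosen on this comparison, 0.21 for the endothelial markers, 0.12 for the other pan-endothelial genes and -0.35 for red cell genes.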

How the data were processed

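Liver RNA of 8 samples was measured on 2-colour Agilent arrays. The deposited intensity values are the median brightness of each spot and of its background, from Agilent Feature Extraction 10.7.3.1 according to the headers. The same deposited files hold the software's processed signals. A deposited value table gives log2 units. Its columns followed the unsubtracted log2 Cy5/Cy3 ratio after loess (r 0.9909 to 0.9955, slope 0.980 to 0.991), with medians of 0.0124 to 0.0386, and how its dyes were corrected is unknown.

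Intensities were background-corrected with normexp (offset 50) and loess-normalized within arrays in limma 3.58.1 (R 4.3.3), giving control spots (4259 of 62976) and outlier spots weight 0. Spots were averaged into 30367 probes, of which the filter (Cy5 well above background on 4 or more arrays) left 17859. Probes were named from RefSeq accessions through the GRCr8 gene table, which named 18004, and the brightest probe stood for a gene. Groups were fitted with lmFit and eBayes, adjusted by Benjamini-Hochberg over the probes left, and the procedure was tested on simulated data. Single channels were compared after quantile normalization between arrays.

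The genes and lists were chosen with earlier results of these data known. Genes named besides the 10 are the 3 of smallest p in each endothelial or pathway list, the 1 of smallest p in each list of another cell type, the 5 most like the marker mean, the 3 most like each of Esm1, Apln and Nrarp, and Dbp. Aplnr and Angpt2 are named outside that rule. For the cholangiocyte list, the gene that the rule names is not reported here. Alternatives covered the background correction, processed signals, median centring, Cy5 alone, the filter, blocks for replicate number and slide row, the variance model, the value table and leaving out 1 array at a time.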

Additional observations from a re-analysis of the deposited data

Results flagged for a closer look

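Within the 4 AhR arrays, Nrarp was 0.16 on AhR 1, apart from 0.32 to 0.34 on the other 3 (log2 Cy5/Cy3, Dixon's criterion for 4 values). Within the 4 Control arrays, the mean of the red cell genes was 0.44 on Control 2, apart from -0.87 to -0.75 on the other 3. These are 2 of 48 groups of 4 arrays checked, and chance marks about 1 in 20. Control 2 was also the lowest array for Nrarp (-0.48) and the highest for Kdr (0.40) and Pecam1 (0.14).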

How the results depend on the processing

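No setting called a probe between AhR and Control. Tie1, Oit3 and Lyve1 kept a higher mean in AhR in all 21 settings. Esm1, Nrarp and Apln did so too. They were chosen on this comparison and the settings reuse the same arrays, so nothing is read from their constant sign. The size of the differences followed the treatment of background. Agilent's processed signals gave 1.04 for Esm1 and 0.81 for Apln, and an offset of 10 gave 0.56 for Apln. With 1 array left out, Kdr ranged from -0.13 to 0.23 (0.00 without AhR 1) and Pecam1 from -0.02 to 0.19. The probes called between liver and reference numbered 3894, and 5988 under median centring. Under that centring, Kdr was 0.14 over the reference, Oit3 0.10 and Pecam1 0.00. Oit3, near 0.00, was also 0.03 with processed signals and with the value table, and ranged from -0.07 to 0.04 with 1 array left out. Each of the 9 genes has 1 probe, so averaging probes altered none.

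With the replicate block, 0 probes were called and 251 had an unadjusted p under 0.05, against 288 without it. The deviations of same-numbered arrays correlated at 0.00268, -0.0619, 0.0481 and -0.369, and 0 of 8 arrays correlated best with its own number. No likeness by number was seen, and so few arrays cannot show whether same-numbered pools shared anything else. Dim probes, among them Esm1, Apln, Nrarp and Tie1, have little signal over background, and their fold follows its correction.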
